A study of Ursus arctos with 12 samples.

Results

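Excitation-contraction coupling is the step by which an electrical impulse on the muscle membrane releases calcium from the sarcoplasmic reticulum. The T-tubule, an inward fold of the surface membrane, carries a voltage-sensing calcium channel, the dihydropyridine receptor, which faces the ryanodine receptor, the calcium release channel of the reticulum. In skeletal muscle the sensor opens the release channel by direct coupling, at a junction called the triad that junctophilins hold together. The genes described here were chosen by name as the core of this complex, 10 genes out of the 30249 in the count table. Of these, 9 were listed by their symbol. The remaining gene, JPH2, was not listed by its symbol and was found by its RefSeq gene number, under which the table carries it as LOC113258282. All 10 had enough reads to be tested.

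The RNA came from biopsies of the vastus lateralis, a thigh muscle, of 6 free-ranging brown bears aged 2 to 3 years. Each bear was sampled in winter during hibernation and again in summer in its active period, which gave 6 winter and 6 summer libraries. The comparison asks which transcripts differ in level between the hibernating and the active state of the same animals. Levels are given as CPM, the reads of a gene scaled to a common library size, with TMM scaling between libraries, and changes as the log2 fold change of winter against summer from edgeR's quasi-likelihood test. A gene was called at a Benjamini-Hochberg adjusted p below 0.05 over all 17290 genes tested, the test behind each adjusted p below.

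The libraries carried the transcripts of skeletal muscle fibres. CKM, the muscle creatine kinase, had a median of 66207 CPM in summer and 69967 CPM in winter. Over all genes tested, 19.6% were called higher and 19.9% lower in winter, the background for the counts of called markers. Of 10 fibre markers, 1 was higher and 4 were lower in winter, and their summed level ran from 118274 to 204646 CPM in summer and from 128200 to 164516 CPM in winter. Markers of several other cell types were lower in winter. The 5 fibroblast markers summed to 3063 to 7897 CPM in summer and 228 to 1282 CPM in winter, with 3 lower, and the 5 endothelial markers to 577 to 916 CPM in summer and 381 to 449 CPM in winter, with 4 lower. Among macrophage markers 3 of 5 were lower (51.4 to 102 CPM in summer, 36.1 to 63.4 CPM in winter). Among smooth muscle and pericyte markers 1 of 5 was lower, close to the background (188 to 264 CPM in summer, 132 to 213 CPM in winter). Adipocyte markers, with 1 of 5 higher and 1 lower, also close to the background, summed to 297 to 1376 CPM in summer and 216 to 459 CPM in winter. The winter library of bear 1509 stood apart from the rest. On the second principal component it lay at −98.6 against 6.35 to 23.1 in the other winter libraries, and its Schwann cell markers summed to 126 CPM against 6.84 to 25.3 CPM in the other winter and 18.3 to 44.8 CPM in the summer libraries, with 1 of 5 lower over the season comparison. SOX10, a defining Schwann cell factor, had 0 to 8 reads per library. In bulk muscle, fewer cells of a type and less RNA per cell cannot be told apart.

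Of the 10 genes, 2 were called higher in winter, TRDN and JPH1, and 1 lower, JPH2. The other 7 genes, the ryanodine receptors, the dihydropyridine receptor subunits and STAC3, were not called. Over all genes tested, 19.6% were called higher and 19.9% lower, so that 2 of 10 higher is close to the background and 1 of 10 lower is below it. The median log2 change of the 10 genes was 0.12, where that of all genes tested was −0.0021. In edgeR with a replicate block for each animal, 2 were again higher and 1 lower.

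**Figure D1:**
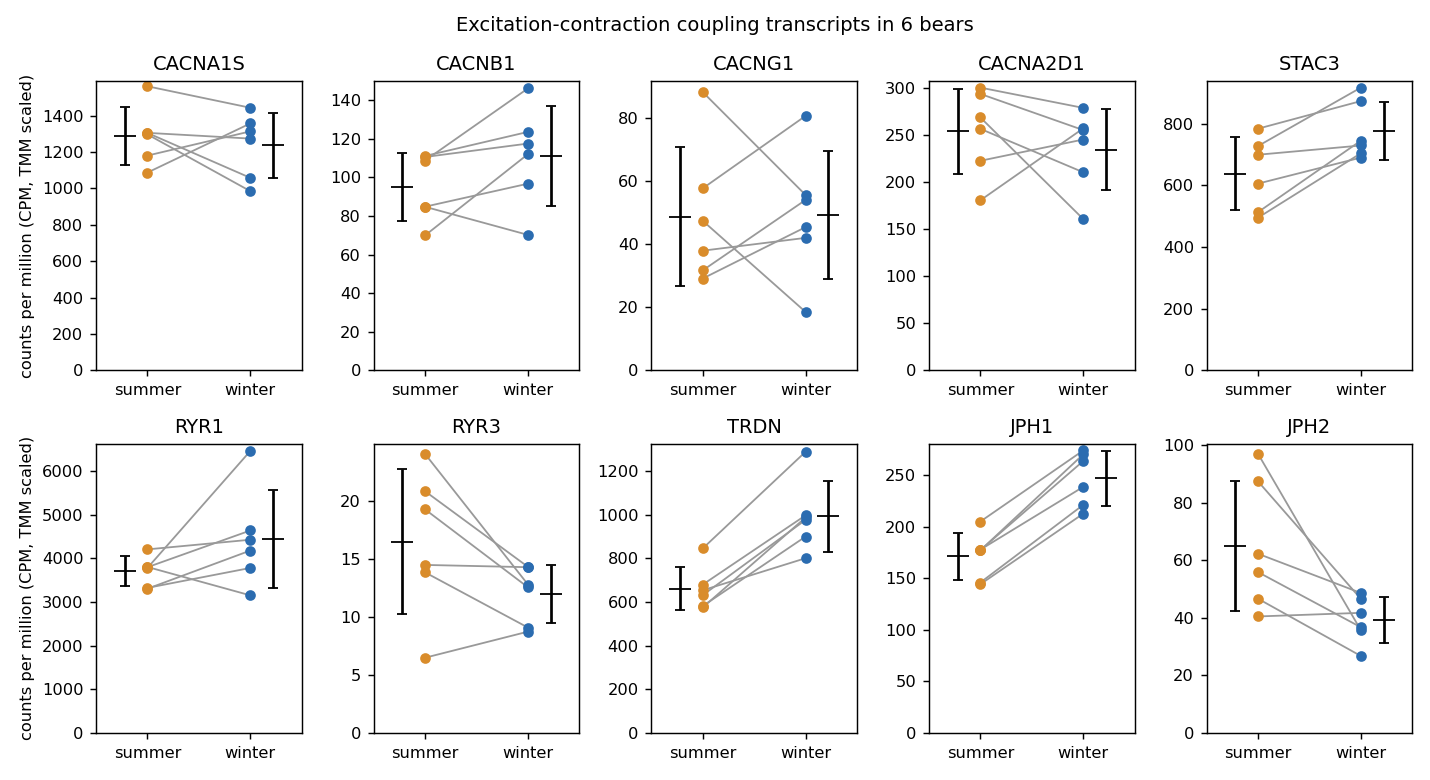
Level of each gene in TMM-scaled CPM (linear axis from 0) in the summer (orange) and winter (blue) library of each of 6 bears, with grey lines joining the libraries of one bear and black bars giving the mean ± SD of a season. The 6 winter values of JPH1 lie above all 6 summer values, TRDN is higher in winter in 6 of 6 bears and JPH2 is lower in 5 of 6.

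The voltage sensor was not called in either direction. CACNA1S encodes the pore-forming subunit of the dihydropyridine receptor, which carries the voltage-sensing segments. Its lowest, median and highest values were 1087, 1302 and 1562 CPM in summer and 985, 1294 and 1444 CPM in winter. The ranges of the seasons overlapped, and both the highest value (bear 1316, summer) and the lowest (bear 1509, winter) lay outside the overlap. Its log2 change was −0.06 ± 0.13 (standard error, SE, with adjusted p = 0.742), with 2 of 6 bears higher and 4 lower in winter and single bears from −0.40 to 0.32. Without bear 1509 the estimate was 0.01 (adjusted p = 0.949), and CACNA1S was not called under any of the 14 alternatives.

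The accessory subunits of the channel were not called either. CACNB1 encodes the intracellular beta subunit, which is needed to bring the channel to the triad. It stood at 69.9, 96.8 and 111 CPM (lowest, median, highest) in summer and 70.2, 115 and 146 CPM in winter. The seasons overlapped, and bear 1509 was the bear in which the winter library was lower. This gave a log2 change of 0.23 ± 0.17 (SE, adjusted p = 0.298), higher in 5 of 6 bears. CACNA2D1 encodes the alpha-2/delta subunit, an extracellular protein that supports the surface level of the channel and is made by many cell types other than muscle fibres. It ran from 181 to 300.3 CPM in summer (median 262) and from 161 to 279 CPM in winter (median 250.1), a log2 change of −0.11 ± 0.15 (SE, adjusted p = 0.574). Bears 1317 and 1509 were higher in winter and the other 4 bears were lower.

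CACNG1, the gamma subunit and a muscle-specific part of the channel, varied most between bears. It ran from 29.0 to 88.1 CPM in summer (median 42.6) and from 18.4 to 80.6 CPM in winter (median 49.6). In bear 1509 it was at 47.3 and 18.4 CPM in the summer and the winter library, a difference of −1.36 on the log2 scale, while in bear 1317 the difference was 0.77. The SD of the 6 differences was 0.84, the largest among the 10 genes. Its log2 change of 0.02 ± 0.32 (SE, adjusted p = 0.965) was within the spread between bears, and its sign changed with library totals in place of TMM and without 4 of the single bears.

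STAC3 encodes an adaptor that binds the voltage sensor and is required for it to reach the T-tubule and act on the release channel. Its levels were 495, 652 and 784 CPM (lowest, median, highest) in summer and 690, 737 and 917 CPM in winter. It was higher in winter in 6 of 6 bears, from 0.06 in bear 1512 to 0.54 in bear 1317 on the log2 scale, but the ranges of the seasons overlapped. Its log2 change of 0.29 ± 0.14 (SE, adjusted p = 0.109) was not called. Under a replicate block for each animal its adjusted p was 0.0623 in edgeR and 0.0192 in DESeq2, the lowest of 0.0192 to 0.214 over the alternatives.

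RYR1 is the ryanodine receptor of skeletal muscle, the channel through which the calcium of contraction leaves the reticulum. It had 57165 to 153980 reads per library. In summer it stood at 3306, 3791 and 4209 CPM (lowest, median, highest) and in winter at 3155, 4307 and 6466 CPM. The highest value was the winter library of bear 1316, above the other winter libraries at 3155 to 4642 CPM, and the lowest was the winter library of bear 1509. The log2 change was 0.26 ± 0.16 (SE, adjusted p = 0.21), with 5 of 6 bears higher. It was 0.13 without bear 1316 (adjusted p = 0.495) and 0.36 without bear 1509 (adjusted p = 0.117), and RYR1 was not called under any of the 14 alternatives.

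RYR3 is a second ryanodine receptor, which in mammals is found in many tissues and in skeletal muscle is mostly a feature of development. It had 151 to 615 reads per library. Summer values were 6.48, 16.9 and 24.1 CPM (lowest, median, highest) and winter values 8.73, 12.7 and 14.3 CPM. The lowest summer value was that of bear 1305, in which RYR3 was 0.42 higher in winter on the log2 scale, and the other 5 bears were lower. The log2 change was −0.46 ± 0.25 (SE, adjusted p = 0.161), which did not pass. Without bear 1305 it was −0.56 and called (adjusted p = 0.032, within 0.032 to 0.359 over the alternatives). Whether some reads were shared between the ryanodine receptors was not tested.

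TRDN encodes triadin, a membrane protein of the junctional reticulum that ties the release channel to calsequestrin, the calcium-binding protein of its lumen. It rose from 575, 643 and 846 CPM (lowest, median, highest) in summer to 801, 983 and 1290 CPM in winter. The winter library was higher in 6 of 6 bears, and the seasons met only because the summer library of bear 1512 (846 CPM) lay above the winter library of bear 1511 (801 CPM). The log2 change was 0.59 ± 0.13 (SE, adjusted p = 0.00345), which is 1.5-fold, with single bears from 0.29 to 0.78. It was called under each of the 14 alternatives, with adjusted p of at most 0.0156.

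JPH1 and JPH2 encode junctophilins, which span the gap between the T-tubule and the reticulum and hold the membranes at a fixed distance. JPH1, the form most specific to skeletal muscle, stood at 144, 177 and 205 CPM (lowest, median, highest) in summer and at 213, 252 and 274 CPM in winter. The seasons did not overlap, as was the case for 17.3% of all genes tested. JPH1 rose by 0.53 ± 0.11 on the log2 scale (SE, adjusted p = 0.00199), which is 44.2% higher, and the 6 bears lay close together, from 0.42 to 0.61 (SD 0.09). It was called under each of the 14 alternatives, with adjusted p of at most 0.0119.

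JPH2, the junctophilin of both heart and skeletal muscle, changed the other way. Its values were 40.5, 59.1 and 97.0 CPM (lowest, median, highest) in summer and 26.7, 39.2 and 48.6 CPM in winter. The seasons overlapped at 40.5 to 48.6 CPM, and bears 1305 and 1316 had the highest summer values, 87.4 and 97.0 CPM. The log2 change was −0.72 ± 0.21 (SE, adjusted p = 0.0149), which is 39.5% lower, with 5 of 6 bears lower and bear 1317 at 0.04. The call was lost without bear 1316, where the log2 change was −0.54 and the adjusted p 0.0667, the highest of 0.000729 to 0.0667 over the alternatives. Levels were not compared between genes, since the lengths of the transcripts counted were not in the sources used here.

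**Figure D2:**
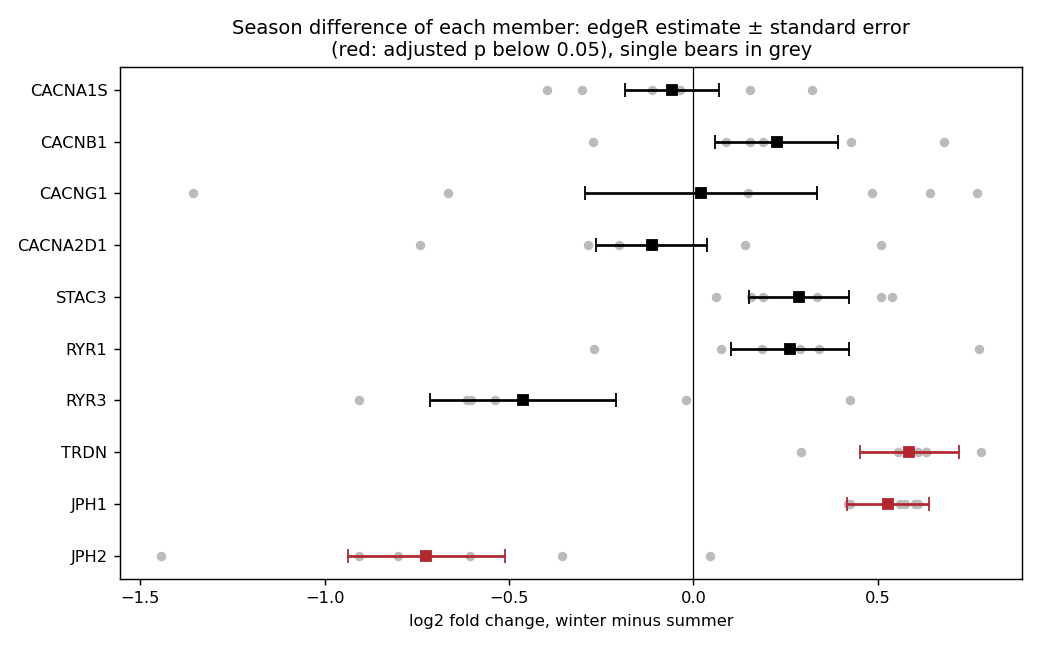
Log2 change of winter against summer for each gene on the x axis, with squares and bars for the edgeR estimate ± standard error (red where the adjusted p was below 0.05) and grey points for the winter-minus-summer difference of each of 6 bears in log2 CPM. The grey points of JPH1 span 0.42 to 0.61, and those of CACNG1 span −1.36 to 0.77.

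The members were also set against one another within a library, as log2 ratios of read counts that do not depend on the scaling between libraries. The 4 ratios were compared by an exact two-sided sign-flip permutation test over the 6 bears, in which the smallest p is 0.03125, with adjustment over the 4 ratios. JPH2 relative to JPH1 moved most. The log2 ratio ran from −1.88 to −0.87 in summer and from −2.99 to −2.30 in winter, so that the seasons did not overlap. The mean difference was −1.21 ± 0.53 (SD, n = 6 bears), 0.432 of the summer ratio, and the ratio was lower in 6 of 6 bears (exact permutation p = 0.03125, the smallest the test can give, adjusted 0.0625).

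CACNA1S relative to RYR1, the transcripts of the sensor and of its release channel, was also lower in winter in 6 of 6 bears (exact permutation p = 0.03125, adjusted 0.0625). The log2 ratio ran from −1.69 to −1.28 in summer and from −2.16 to −1.62 in winter. The mean difference was −0.29 ± 0.33 (SD, n = 6 bears). Bear 1316 had the largest difference, at −0.89, and without it the mean was −0.18, while the median over the 6 bears was −0.13.

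STAC3 relative to CACNA1S was higher in winter in 5 of 6 bears, by a mean of 0.36 ± 0.37 (SD, n = 6 bears) on the log2 scale, and the exact permutation p was 0.09375 (adjusted 0.125). RYR3 relative to RYR1 was lower in 4 of 6 bears, with a mean difference of −0.61 ± 0.68 (SD, n = 6 bears) and an exact permutation p of 0.125 (adjusted 0.125). In both ratios the seasons overlapped. After adjustment none of the 4 ratios passed 0.05. JPH2/JPH1 and CACNA1S/RYR1 were already at the smallest p the permutation test can give with 6 bears. After adjustment they could have passed only if another ratio had reached it too, whatever the size of their change.

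**Figure D3:**
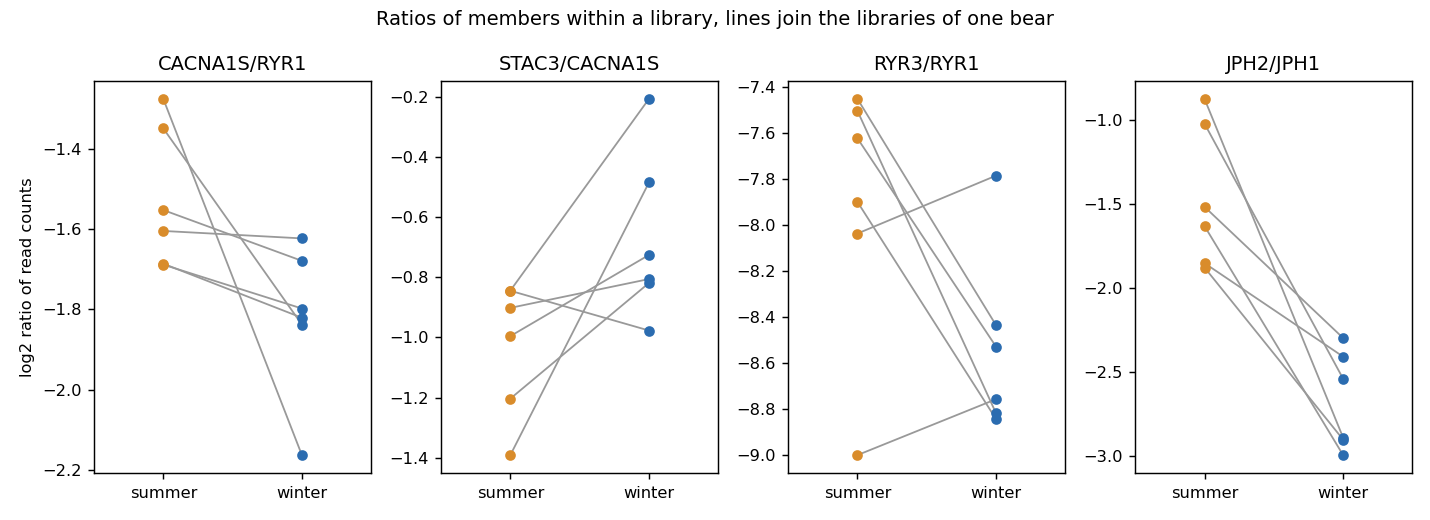
Log2 ratio of the read counts of a pair of genes on the y axis (each panel has its own range) in the summer (orange) and winter (blue) library, with a grey line for each of 6 bears. The lines of JPH2/JPH1 and CACNA1S/RYR1 fall in 6 of 6 bears, and only for JPH2/JPH1 are the seasons separate.

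The triad holds further proteins, and 55 other genes of the pathway were listed, of which 50 had enough reads to be tested. Of the 50, 6 were higher (12%) and 10 were lower (20%) in winter, where 19.6% and 19.9% of all genes were. The 6 include CACNG8 and JPH3, which passed the read filter only through the winter libraries, so their calls carry no weight. With filterByExpr 4 were called higher and 10 lower. Their median log2 change was −0.01.

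Among 8 genes of the reticulum lumen and its junction, 3 were lower and 1 was higher. CASQ1, the calsequestrin of fast skeletal muscle that stores calcium next to the release channel, had a median of 1211 CPM in summer and 926 CPM in winter. On the log2 scale the change was −0.39 ± 0.12 (SE, adjusted p = 0.0219), lower in 6 of 6 bears. It was not called without bear 1316 (−0.31, adjusted p = 0.0829). TMEM38A, a TRIC channel that carries potassium across the reticulum membrane, fell from a median of 424 to 277 CPM (a log2 change of −0.51, SE 0.13, adjusted p = 0.00582). HRC, a histidine-rich calcium-binding protein that binds triadin, was lower at −0.32 (adjusted p = 0.0195), but not called without bear 1317, 1509 or 1512 (adjusted p = 0.0577, 0.0843 and 0.0672).

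ASPH, whose products include junctin, the partner of triadin at the release channel, moved in the direction of TRDN. On the log2 scale the change was 0.50 ± 0.15 (SE, adjusted p = 0.0206), higher in 6 of 6 bears. The table holds 1 value for the whole gene, which also makes an aspartate hydroxylase, and the products were not separated. The call was lost without bear 1316 (adjusted p = 0.0528) or bear 1317 (0.0778). JSRP1, which encodes the junctional protein JP-45 that binds the voltage sensor and calsequestrin, had 54 to 846 reads per library and a log2 change of −0.12 ± 0.49 (SE, adjusted p = 0.861), 0.17 without bear 1316 and 0.12 without bear 1509.

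**Figure D4:**
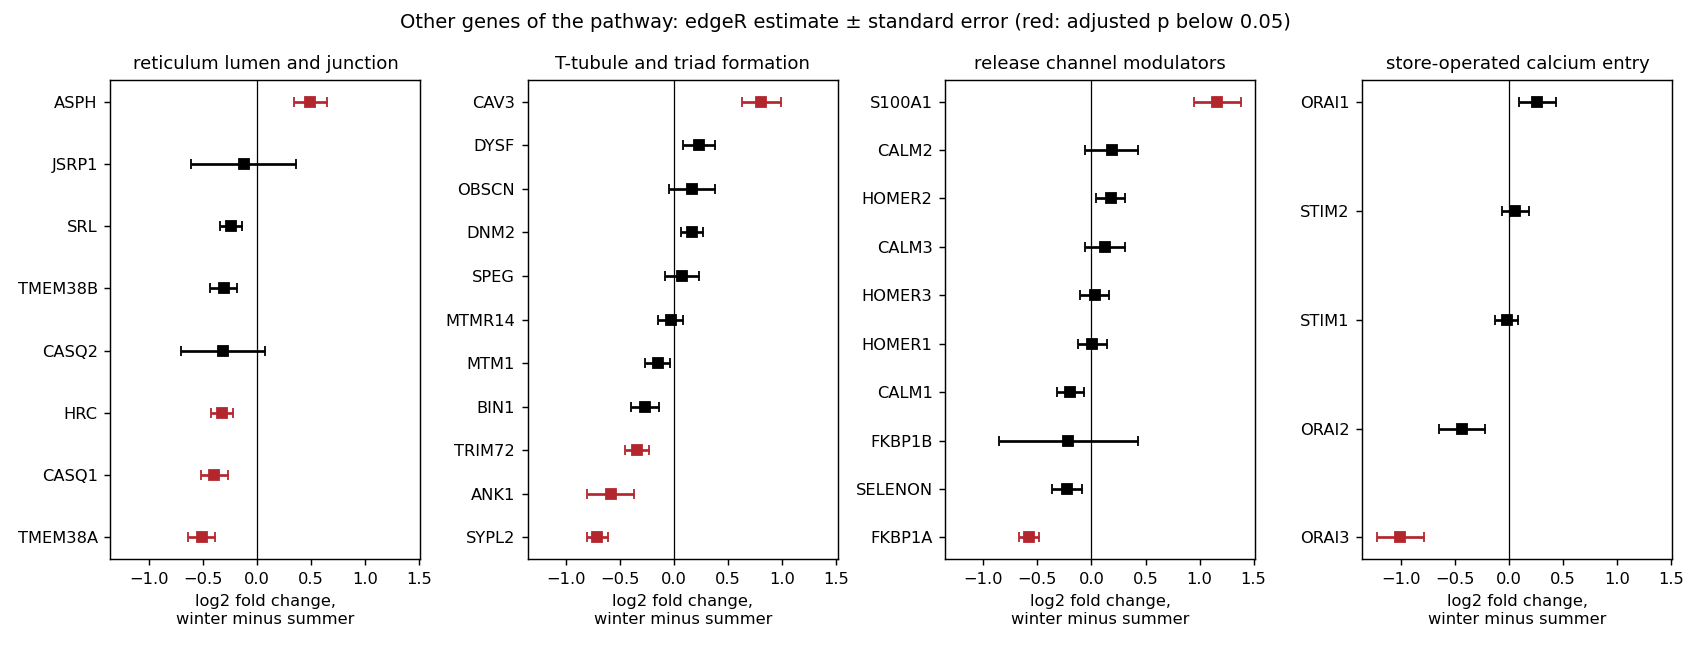
Log2 change of winter against summer (x axis, edgeR estimate ± standard error, red where the adjusted p was below 0.05) for the tested genes of 4 lists. Called genes lie on both sides of 0 in the first 3 lists, with ASPH, CAV3 and S100A1 higher in winter, and ORAI3 lies lowest in the last.

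Of 11 genes of T-tubule and triad formation, 3 were lower and 1 was higher. SYPL2, or mitsugumin 29, a membrane protein of the triad, fell from a median of 519 to 308 CPM. Its seasons did not overlap, and the log2 change was −0.71 ± 0.10 (SE, adjusted p = 0.000101). CAV3, the muscle caveolin that takes part in forming the T-tubule, rose from a median of 202 to 364 CPM (log2 change 0.81, SE 0.18, adjusted p = 0.0032). Both changed in the same direction in 6 of 6 bears and were called under each of the 14 alternatives. TRIM72, a protein of membrane repair, was lower at −0.34 (adjusted p = 0.0277), and ANK1, whose short muscle form links the reticulum to the contractile apparatus, at −0.59 (adjusted p = 0.0408). The TRIM72 call was lost without bear 1305, 1509 or 1511 (adjusted p = 0.0873, 0.0843 and 0.0765). ANK1, found by its RefSeq gene number too, was lost in limma voom (0.0654) and without each of 5 bears, with adjusted p up to 0.122.

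Among 10 modulators of the release channel, 1 was higher and 1 lower. S100A1, a calcium sensor that binds the ryanodine receptor, rose from a median of 166 to 411 CPM, and its seasons did not overlap. Its log2 change was 1.16 ± 0.22 (SE, adjusted p = 0.00096), the largest rise among genes of this pathway with more than 100 reads in every library. FKBP1A, which binds RYR1 and steadies its closed state, fell from a median of 73.3 to 51.0 CPM, with no overlap between seasons and a lower winter value in 6 of 6 bears. Of the 5 genes of store-operated calcium entry, by which the fibre refills the reticulum from outside, 1 was lower. This was ORAI3, at a median of 6.02 CPM in summer and 2.45 CPM in winter (fitted winter over summer fold 0.499, adjusted p = 0.00282), lower in 6 of 6 bears, while STIM1, the reticulum calcium sensor, was at −0.02 (adjusted p = 0.905).

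The paralogs of these proteins that serve other tissues were counted at few reads. RYR2, the ryanodine receptor of the heart, had 14 to 51 reads in summer libraries, 83 in the winter library of bear 1509 and 29 to 83 in the other winter libraries. It was higher in winter in 6 of 6 bears at 1.12 ± 0.34 (SE, adjusted p = 0.0173), and leaving out bear 1305 (adjusted p = 0.0625) or bear 1509 (0.74, adjusted p = 0.0655) ended the call. JPH3, a junctophilin of the brain, had 0 to 3 reads in summer, 11 in the winter library of bear 1509 and 1 to 5 in the other winter libraries (adjusted p = 0.0273, and 0.0519 in DESeq2 under the replicate block). STAC was lower at −0.53 ± 0.15 (SE, adjusted p = 0.0117), with no overlap between seasons. In all, 2 of these 5 paralogs were higher and 1 was lower, but the higher ones include JPH3, whose call carries no weight.

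Of 16 further subunits of voltage-gated calcium channels, 11 could be tested, of which 1 was higher and 1 was lower. CACNG8, the higher one, had 0 to 2 reads in summer libraries, 10 in the winter library of bear 1509 and 1 to 9 in the other winter libraries (adjusted p = 0.00407). Like JPH3, it passed the read filter, with 40 reads over all libraries, only through the winter libraries, so its call carries no weight. CACNA2D2, a relative of CACNA2D1, was lower at −0.93 ± 0.31 (SE, adjusted p = 0.0269), but not without bear 1317, 1511 or 1512 (adjusted p = 0.0843, 0.0656 and 0.123) nor in DESeq2 under the replicate block (0.0545). CACNG3, named after its values were seen, had 31 reads in the winter library of bear 1509 and 0 in the other 11 libraries. Under the replicate block edgeR called it (adjusted p = 0.0199), and without the block it did not (0.0833).

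Of 7 long muscle transcripts, 3 were higher in winter and 0 lower, where 19.6% of all genes were higher and 19.9% lower. The 3 were TTN at 0.65 (adjusted p = 0.0036), NEB at 0.53 (adjusted p = 0.00805) and SYNE1 at 0.67 (adjusted p = 0.00218). The 7 transcripts summed to 27271 to 32648 CPM in summer and 35542 to 49860 CPM in winter. Among 7 tested markers of denervated or immature fibres, 1 was higher (14.3%, below the share over all genes) and 0 were lower. This was CHRNG, at 2.29 ± 0.58 (SE, adjusted p = 0.00699), and the list summed to 45.9 to 179 CPM in summer and 39.2 to 114 CPM in winter. The part of the long transcripts, fibre markers and markers of other cell types in the changes of TRDN, JPH1 and JPH2 was not tested. Without bear 1509, JPH2 was lower by 0.70 on the log2 scale (−0.70, adjusted p = 0.0184).

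To place the patterns, each of 7542 other named genes that averaged 3 log2 CPM or more was compared with RYR1, CACNA1S and JPH2, the member with the largest change, by the mean absolute difference of centred log2 CPM over the 12 libraries. PAXIP1, NARF and MAU2 lay closest to RYR1, at 0.115, 0.120 and 0.124 on the log2 scale. GPKOW (0.0565), TRAF1 (0.0862) and QSOX2 (0.102) lay closest to CACNA1S, and UBALD2 (0.148), ARL6IP4 (0.163) and TTYH2 (0.179) to JPH2.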

How the data were processed

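The data were 12 muscle libraries of 6 brown bears, 1 per bear and season. Per the labels and methods, the authors made stranded mRNA libraries, sequenced them from one end, aligned reads to ASM358476v1 with TopHat2 2.1.1 and counted reads per gene with featureCounts 1.6.2. The deposited values are raw counts. The authors normalized counts by the method of DESeq2 in their own analysis, and those normalized values were not used here. Totals ran from 16742406 to 32140160 reads per library. The lane of each library is not in the labels, and a lane effect was not tested. How reads with several matches were counted is not given in the sources used here.

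The 12959 genes with fewer than 30 reads summed across libraries were dropped. Counts were TMM-scaled and fitted with glmQLFit and glmQLFTest (edgeR 4.0.16, R 4.3.3), with season as the sole term. Log2 CPM used a prior count of 2, and ratios were taken after adding 0.5 to each count. The 14 alternatives were a replicate block for each animal in edgeR and in DESeq2 1.42.0, DESeq2 without it, limma voom 3.58.1, RLE scaling, library totals, no filter, filterByExpr and each of the 6 bears left out; stricter limits were applied to the counts of calls. The members and lists were chosen with earlier results of these data known. The genes named are the 10 members, up to 4 called genes of each pathway list with the smallest adjusted p, and CASQ1, JSRP1, ASPH and RYR2. STIM1, the markers and the long transcripts are named outside that rule, after their values were seen.

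The numbers pair the libraries because both libraries of a number come from one animal, by the methods. Within a bear, deviations from the mean of the season had correlations of 0.0903 to 0.344. Over 30 pairs of different bears the median was −0.0634, below every value within a bear. The highest was 0.142, so the values within and between bears overlapped in part. The main fit did not use the pairing, and the fits with a replicate block did. No library copied another of its season (lowest chi-square 44.4 per gene). The fits were first tested on simulated data in which 200 of 17043 genes were changed. There edgeR with season alone recovered 62% of 2-fold and 96% of 4-fold changes. In the real data 39.5% of genes were called, which alters the adjustment, so these rates do not carry over to the members. A gene that was not called may still differ between the seasons. RefSeq names (UrsArc2.0) were used for JPH2, ANK1 and MYH8. MYH3 was not analysed here. No sequences or coordinates are given, since no genome was used here.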

Additional observations from a re-analysis of the deposited data

How the results depend on the processing

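Stricter limits, an adjusted p under 0.01 plus a fold over 1.3 or under 0.77, were applied to the main edgeR fit only. There 2 of the 10 genes stayed higher and 0 were called lower, since JPH2 did not pass (1 lower at an unadjusted p below 0.05 in edgeR, and 1 lower in DESeq2 at an adjusted p below 0.05). With all bears, the adjusted p of JPH2 was under 0.01 in edgeR with the replicate block (0.00841) and with library totals (0.00451). The same held in DESeq2 with and without the block (0.000729 and 0.00465), with log2 changes of −0.67 and −0.71. It was above 0.01 in limma voom (0.0186), with RLE scaling (0.016), without the filter (0.0134) and with filterByExpr (0.0138). Under the stricter limits in the main fit, 3 of the 50 other pathway genes were higher, CACNG8 among them, and 4 were lower. Of all genes tested, 12% were then higher and 12% lower. With each bear left out in turn, 2 of the 10 genes were higher each time and 0 to 2 lower, and 4 to 6 of the other pathway genes were higher and 7 to 8 lower. Of all genes tested, 31.2% to 38.7% were then called in either direction, against 39.5% with all bears. The 0 lower among the 10 genes came without bear 1316 and the 2 lower without bear 1305, where RYR3 was called. The ratios then ran from −1.34 to −1.05 for JPH2/JPH1, −0.35 to −0.18 for CACNA1S/RYR1, −0.78 to −0.47 for RYR3/RYR1 and 0.25 to 0.46 for STAC3/CACNA1S. Tests on 5 bears cannot pass the threshold for these ratios and were not run.

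The sign changed for CACNG1 with library totals (−0.0546), for CACNG1 without single bears (−0.12 to 0.24), for CACNA1S without single bears (−0.13 to 0.0133, the latter without bear 1509) and for JSRP1 without single bears (−0.39 to 0.17), all of them uncalled. The cause was not tested. Under the replicate block in edgeR, CACNG3 was the one call that changed among the 60 genes. Over the 14 alternatives, 131 of 140 values of the 10 genes kept their sign and their side of the threshold.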
